A study of Arabidopsis thaliana with 20 samples.

Results

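The type-A response regulators of Arabidopsis thaliana are a family of 10 genes: ARR3 (AT1G59940), ARR4 (AT1G10470), ARR5 (AT3G48100), ARR6 (AT5G62920), ARR7 (AT1G19050), ARR8 (AT2G41310), ARR9 (AT3G57040), ARR15 (AT1G74890), ARR16 (AT2G40670) and ARR17 (AT3G56380). They were taken by gene identifier from a table of 33201 genes, by family membership and not by a threshold on any value, although earlier results of these data were known. All 10 were listed and all 10 passed the filter for testing, at least 1 FPKM (fragments per kilobase of transcript and per 1e6 mapped fragments) in at least 2 libraries, which left 22335 genes. ARR15 and ARR16 passed it in 2 libraries each and ARR17 in 4.

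Cytokinin is perceived by membrane histidine kinases, AHK2, AHK3 and AHK4, which pass a phosphoryl group through the phosphotransfer proteins AHP1 to AHP5 to the response regulators. Type-B regulators such as ARR1, ARR10 and ARR12 bind DNA and activate transcription, and the type-A genes are among their early targets. Type-A proteins carry the phosphate-receiving domain without that DNA-binding output and dampen the signal, so their transcripts are widely read as a measure of cytokinin response. In the root tip cytokinin is known for promoting the transition of meristem cells to elongation and for its action in vascular and columella cells.

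Cells came from roots of Col-0 seedlings carrying PET111:GFP, whose fluorescence marks the columella of the root cap. After digestion to protoplasts, cells lacking GFP were sorted, so both zones and all ages share the genotype and the removal of columella cells. Sections labelled elongation zone (EZ) and meristematic zone (MZ) were each taken at 3, 4, 5, 6 and 7 days, with 2 biological replicates per zone and age. RNA was amplified from low input, and the 20 libraries fall into 10 groups.

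Depth, estimated from the steps between the lowest FPKM values, was 12.8 to 50.5 M fragments in EZ libraries and 4.13 to 24.4 M fragments in MZ libraries. Of 7 genes of dividing cells, 5 were higher in EZ libraries and 0 lower (limma with Benjamini-Hochberg adjustment), which is the side opposite to the zone names, so libraries are called by their labels. Whether the labels were exchanged was not tested, and an exchange would turn the sign of every difference between EZ and MZ given here. Across all tested genes 19 of 20 libraries correlated best with a library of their own zone label and 2 with their own replicate. The exception in zone was EZ day 7 replicate 2, whose best match was MZ day 6 replicate 2, and EZ day 6 replicate 2 had the lowest median correlation with the others, 0.872. Results are given below with both of these libraries and, where it matters, without them.

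The family was divided into abundant and scarce members. ARR4 averaged 48.1 FPKM over the 20 libraries, ARR3 42.7 FPKM and ARR8 32.6 FPKM, and together these 3 genes held a median of 76.9% of the family's summed FPKM in EZ libraries (range 63.3% to 84.3%) and 82.3% in MZ libraries (range 68.2% to 88.0%). ARR9 and ARR6 followed at 13.9 and 12.8 FPKM and ARR5 at 7.83 FPKM, and ARR7 was low at 1.85 FPKM. FPKM is scaled by transcript length, which is what allows this order between genes.

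Steps in the order differed in firmness. ARR8 exceeded ARR9 in 20 of 20 libraries, ARR5 exceeded ARR7 in 20 of 20, ARR7 exceeded ARR17 in 18 and ARR6 exceeded ARR5 in 17. ARR4 was above ARR3 in 14 libraries, ARR3 above ARR8 in 14 and ARR9 above ARR6 in 13, so these neighbours changed places between libraries. Among the closest relatives in sequence, ARR3 and ARR4 were both abundant, while ARR8 exceeded its relative ARR9 in every library.

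The 3 scarcest genes were near the limit of detection. ARR15 reached at most 1.92 FPKM in EZ libraries and 1.14 FPKM in MZ libraries, ARR16 at most 1.41 FPKM in EZ and 1.48 FPKM in MZ, and ARR17 at most 3.24 FPKM in EZ and 2.36 FPKM in MZ. ARR15 was listed at 0 in 7 EZ and 4 MZ libraries, and ARR16 and ARR17 each in 5 EZ and 8 MZ libraries. An FPKM worth 3 fragments, the number that a listed 0 leaves possible, was 0.0676 to 0.826 for ARR15, 0.0317 to 0.388 for ARR16 and 0.142 to 1.74 for ARR17, depending on library depth. Libraries listed at 0 or under that limit, which covers counting error alone, do not separate low expression from none. Other libraries were well above it, with up to 23.0 fragments for ARR15, 81.2 for ARR16 and 30.4 for ARR17. All fragment numbers are approximate, since they rest on the estimated depth and on the longest transcript of each gene in TAIR10.1. The authors name TAIR10. No library listed ARR7 at 0, but its median was 12.8 fragments, against 1148 for ARR4. It fell to 1.21 fragments at the lowest, under the limit of 3, and reached 1 FPKM in 11 libraries. The 7 members listed above 0 in every library are called detected below, which for ARR7 holds with this limit.

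**Figure D1:**
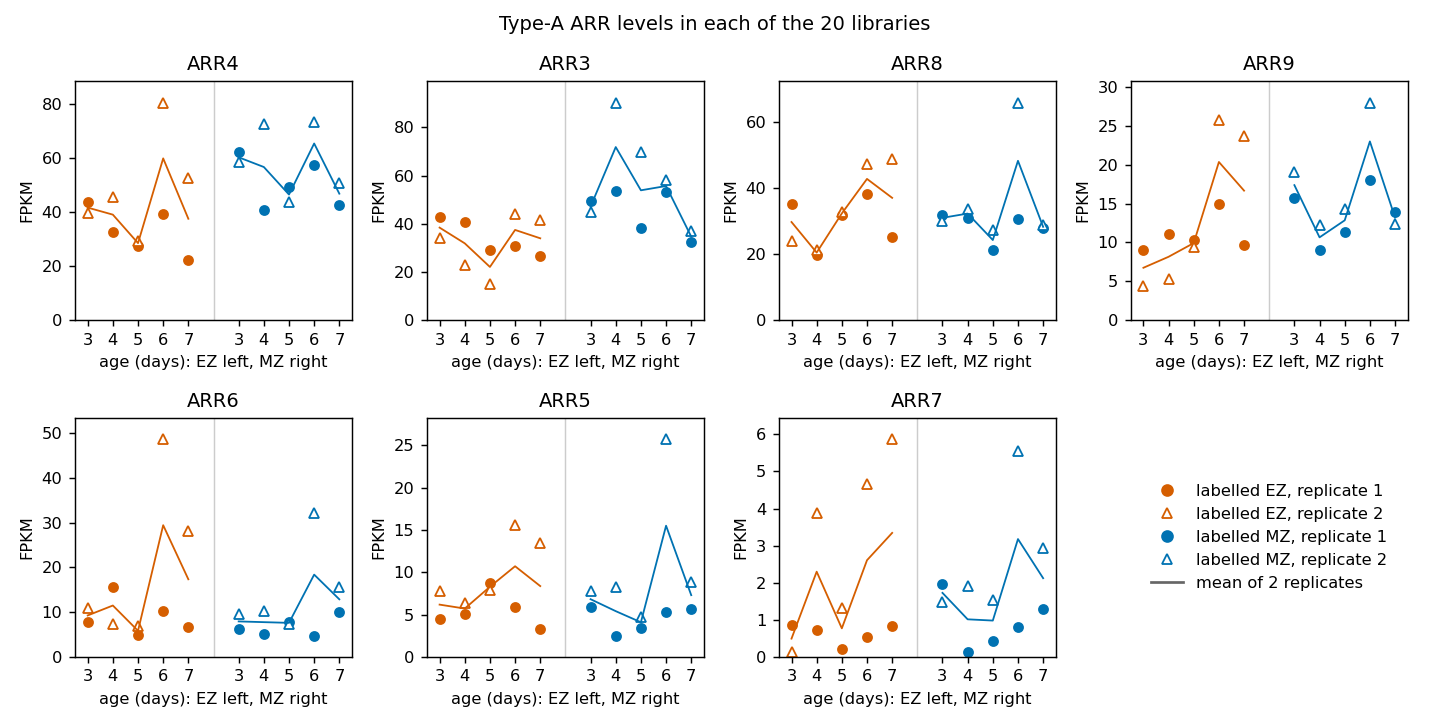
Level of the 7 members listed above 0 in every library, in FPKM on linear axes that start at 0, against age in days. In each panel the libraries labelled EZ are left and those labelled MZ right. Circles are replicate 1, open triangles replicate 2 and lines the mean of the 2 replicates. ARR3 lies lower in EZ at days 3 to 6, and replicate 2 of EZ day 6, EZ day 7 and MZ day 6 stands high for ARR5 to ARR9.

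ARR3 was the member that differed between the zone labels. It read 15.1 FPKM at the lowest, 32.4 at the median and 43.9 at the highest in EZ libraries, against 32.3, 51.5 and 90.2 FPKM in MZ libraries. All 10 EZ libraries lay below the MZ median, 5 of them below the lowest MZ library, and the ranges overlapped. The mean was 32.7 ± 9.63 FPKM in EZ and 52.6 ± 17.2 FPKM in MZ (SD, n = 10 each). On the log2(FPKM + 1) scale the difference, EZ minus MZ averaged over the 5 ages, was -0.67 ± 0.18 (SE; limma, Benjamini-Hochberg adjusted p = 0.0117).

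Age by age, ARR3 read 42.8 and 33.9 FPKM in the EZ libraries of day 3, against 49.5 and 44.7 FPKM in MZ. At day 4 it read 40.8 and 23.0 FPKM in EZ and 53.4 and 90.2 FPKM in MZ, and at day 5 it read 29.0 and 15.1 FPKM in EZ and 38.1 and 69.6 FPKM in MZ. Both EZ values lay under both MZ values at each of these ages, and the gap was widest at days 4 and 5, at -1.16 and -1.26 on the log2 scale. At day 6 the EZ values, 30.9 and 43.9 FPKM, were again under the MZ values, 53.4 and 58.0 FPKM. At day 7 they overlapped, with 26.4 and 41.5 FPKM in EZ and 32.3 and 37.0 FPKM in MZ, and the difference was -0.06. Of all genes tested, 4.87% had both EZ libraries below both MZ libraries at 4 or more ages. A change of the ARR3 difference with age was not detected (limma, trend adjusted p = 0.977).

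The other 9 members did not pass the test between labels, which makes 1 of 10 called, lower in EZ libraries, where 28.4% of all genes were called, 20.6% as higher and 7.77% as lower. The median difference over the family was -0.05, against 0.15 over all genes tested. By unadjusted p of at most 0.05 the count was 2 of 10 members, ARR3 and ARR4, against 39.9% of all genes. None of the 10 had EZ and MZ libraries that did not overlap, as was so for 0.927% of all genes with EZ higher and 0.139% with EZ lower. In bulk RNA, fewer cells of a type and less RNA per cell cannot be told apart.

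ARR4, the closest relative of ARR3, read 22.3 FPKM at the lowest, 39.3 at the median and 80.3 at the highest in EZ libraries, against 40.6, 54.1 and 73.1 FPKM in MZ libraries. Its highest value of all lay in the EZ label and 6 EZ libraries lay below the lowest MZ library. The difference was -0.47 ± 0.18 (limma, adjusted p = 0.0637), with the EZ mean lower at 5 of 5 ages, as in 9.62% of all genes. The adjusted p passed the threshold under median-of-ratios scaling (0.0340), library weights (0.0496) and the replicate block (0.0312). It also passed when EZ day 6 replicate 2 (adjusted p = 0.0220), EZ day 7 replicate 2 (adjusted p = 0.0156) or MZ day 4 replicate 1 (adjusted p = 0.0402) was left out, but was 0.106 without MZ day 6 replicate 2, the other library where ARR4 stood high. Without both EZ libraries that stand apart the difference was -0.69 (limma, adjusted p = 0.00319). These are the 2 highest EZ libraries of ARR4, so leaving them out lowers its EZ mean by construction.

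ARR9 read 4.42 FPKM at the lowest, 10.01 at the median and 25.8 at the highest in EZ libraries, against 9.03, 14.1 and 28.0 FPKM in MZ libraries. Its EZ libraries of day 3, at 9.05 and 4.42 FPKM, lay under those of MZ, at 15.7 and 19.1 FPKM, whereas at day 7 the labels overlapped. The difference over the ages was -0.41 ± 0.20 (limma, adjusted p = 0.149). It was -0.61 without EZ day 6 and day 7 replicate 2 (limma, adjusted p = 0.0346), which are the 2 highest EZ libraries of ARR9, so that this value is lower by construction. Without MZ day 6 replicate 2, the highest MZ library, it was -0.35 (adjusted p = 0.245).

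ARR8 gave the narrowest interval around no difference among the abundant members. It averaged 32.4 ± 10.2 FPKM in EZ and 32.7 ± 12.1 FPKM in MZ (SD, n = 10 each), a difference of -0.02 ± 0.16 with a 95% interval of -0.35 to 0.32. ARR5 differed by 0.12 ± 0.32, ARR6 by 0.26 ± 0.37 and ARR7 by -0.08 ± 0.37, with intervals that leave room for differences of over 0.5 in either direction. The direction for ARR5 and ARR6 turned to -0.20 and -0.02 under quantile normalisation. For ARR15, ARR16 and ARR17 the values were -0.07, 0.19 and 0.21 on a scale that shrinks differences of genes this low.

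**Figure D2:**
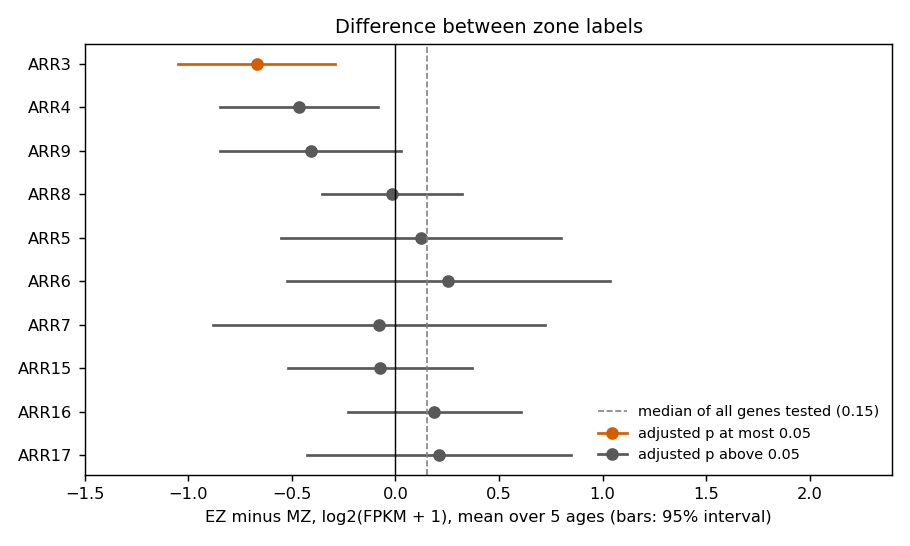
Difference between zone labels for the 10 members, EZ minus MZ on the log2(FPKM + 1) scale averaged over 5 ages, with 95% intervals from limma. Orange marks an adjusted p of at most 0.05, which ARR3 reached at -0.67, and the dashed line is the median of all genes tested, 0.15.

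Marker genes of several cell types also differed between the labels, in both directions. Of 5 root cap genes 3 were lower in EZ libraries, among them BRN2, a regulator of root cap maturation, at -0.93 ± 0.28 (limma, adjusted p = 0.0236), and 1, FEZ, was higher. Their summed level ran from 199 to 1036 FPKM in EZ libraries, with a median of 371, and from 478 to 1667 FPKM in MZ libraries, with a median of 981, and none of the 5 was at 0 in any library. Of 4 root hair genes 1, EXPA7, was lower in EZ at -1.06 ± 0.28 (adjusted p = 0.0117), and their summed level was 82.1 to 232 FPKM in EZ and 132 to 368 FPKM in MZ. The summed level of the 7 genes of dividing cells was 50.7 to 202 FPKM in EZ and 19.0 to 65.0 FPKM in MZ. Of 5 xylem genes 0 were called, although all 5 differences were negative, with a median of -1.03. Of 4 endodermis genes 1 was called, as higher in EZ, and of 3 phloem genes tested 0. The part of these cells in the zone differences of the family was not tested.

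No member changed with age by limma with Benjamini-Hochberg adjustment. In EZ libraries 0 of 10 members passed for a linear trend, against 0.0134% of all genes, and 1 passed an unadjusted p of 0.05, against 8.33%. In MZ libraries 0 of 10 passed, against 0.918%, and 0 by unadjusted p, against 13.0%. Over both labels 0 of 10 passed, against 0.242%, with 1 by unadjusted p, against 16.5%. Tests for any difference among ages called 0 members in EZ, against 0.0537%, and 0 in MZ, against 0.412%, with 1 and 0 members at an unadjusted p of 0.05, against 7.99% and 9.47%.

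ARR9 had the smallest p for age. Its mean over the 2 EZ libraries was 6.74 FPKM at day 3, 8.15 at day 4, 9.92 at day 5, 20.4 at day 6 and 16.7 at day 7. In MZ libraries the corresponding means were 17.4, 10.7, 12.8, 23.0 and 13.2 FPKM, with no order by age. The slope was 0.35 ± 0.10 log2 units per day in EZ (limma, unadjusted p = 0.00374, adjusted p = 0.471) and 0.03 ± 0.10 in MZ (adjusted p = 0.945). The difference of these slopes, 0.32 ± 0.14, had an unadjusted p of 0.0414 and an adjusted p of 0.792. The high days rest partly on replicate 2, which read 25.8 FPKM at day 6 and 23.7 FPKM at day 7 in EZ, against 15.0 and 9.65 FPKM in replicate 1.

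The slopes of the other detected members were as follows in EZ: ARR7 0.26 ± 0.19, ARR6 0.21 ± 0.18, ARR8 0.15 ± 0.08, ARR5 0.10 ± 0.16, ARR4 0.00 ± 0.09 and ARR3 -0.01 ± 0.09 log2 units per day. In MZ they were 0.12 for ARR7, 0.20 for ARR6, 0.02 for ARR8, 0.13 for ARR5, -0.05 for ARR4 and -0.12 for ARR3, and none passed the test. Without the 2 EZ libraries that stand apart, both of late ages and high for these genes, the EZ slopes of ARR4 to ARR7 turned to -0.17, -0.14, -0.09 and -0.02. Tests of whether the zone difference changes with age called 0 of 10 members as a trend, against 0.00895% of all genes, and 0 as any change, against 0.0448%, with 2 and 0 at an unadjusted p of 0.05, against 6.11% and 4.62%. The 2 are ARR9 and ARR17.

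**Figure D3:**
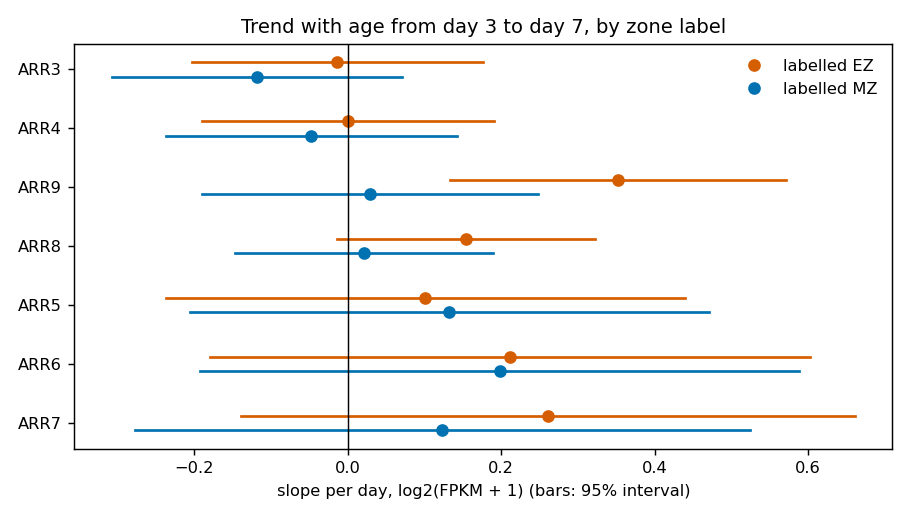
Trend with age of the 7 detected members, as the slope per day on the log2(FPKM + 1) scale from day 3 to day 7, with 95% intervals from limma and EZ drawn above MZ for each gene. The EZ interval of ARR9, at 0.35, excludes 0 before adjustment over all genes, and the other 13 intervals include 0.

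Several members differed widely between the replicates of a group, and in the same libraries. ARR6 read 48.6 FPKM in EZ day 6 replicate 2, 28.0 in EZ day 7 replicate 2 and 32.1 in MZ day 6 replicate 2, while no other library passed 15.6 FPKM. The replicate 1 libraries of the same groups read 10.2, 6.61 and 4.66 FPKM. For ARR5, ARR7, ARR8 and ARR9 the same 3 libraries were also the 3 highest, which makes 5 of 10 members, a pattern shared by 1.09% of all genes tested and chosen after its values were seen.

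ARR5, whose closest relative is ARR6, read 15.5 FPKM in EZ day 6 replicate 2, 13.5 in EZ day 7 replicate 2 and 25.7 in MZ day 6 replicate 2, against at most 8.88 FPKM elsewhere. ARR7 read 4.67, 5.86 and 5.54 FPKM in those libraries, against at most 3.87. ARR8 read 47.1, 48.8 and 65.7 FPKM, against at most 38.3, and ARR9 read 25.8, 23.7 and 28.0 FPKM, against at most 19.1. In all 4 genes, as in ARR6, both labels are represented among the high libraries, and all of these are replicate 2 of day 6 or day 7.

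ARR4 shared the pattern in part and ARR3 did not. ARR4 had its highest values in EZ day 6 replicate 2, 80.3 FPKM, and MZ day 6 replicate 2, 73.1 FPKM, but EZ day 7 replicate 2, at 52.6 FPKM, ranked 7. ARR3 read 43.9, 41.5 and 58.0 FPKM in the 3 libraries, ranks 8, 10 and 3, and its highest value, 90.2 FPKM, was in MZ day 4 replicate 2. The log2 distance between the replicates of a group passed 1 in 5 of 10 groups for ARR7, 4 for ARR5, 3 for ARR6, 2 for ARR4, 1 each for ARR8 and ARR9 and 0 for ARR3.

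As a description over the 20 libraries, on the log2(FPKM + 1) scale, the 10 pairs among ARR5 to ARR9 had Pearson correlations of 0.54 to 0.76, with a median of 0.64 and Spearman correlations of 0.24 to 0.60. ARR5 to ARR9 were grouped because they share their 3 highest libraries, which by itself raises their correlations with each other. Leaving out for each pair the 2 libraries farthest from the median of its first gene gave Pearson values of 0.21 to 0.57, with a median of 0.40. At least 1 of the 3 shared libraries stayed in each time. ARR3 correlated with ARR5 to ARR9 at 0.09 to 0.43 and ARR4 at 0.50 to 0.60. All 45 pairs of the family had a median of 0.23, and the higher values among ARR5 to ARR9 follow in part from the grouping. All genes of a library share its depth and cell makeup, and levels of marker genes differed even between replicates. These values therefore describe the libraries and carry no test.

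Among the pairs of closest relatives, ARR5 and ARR6 correlated at 0.76 (Spearman 0.58), with 0.68 within EZ libraries and 0.89 within MZ libraries. ARR8 and ARR9 correlated at 0.71 (Spearman 0.51), with 0.80 within EZ and 0.72 within MZ. ARR3 and ARR4 stood at 0.65 (Spearman 0.67), with 0.54 within EZ and 0.46 within MZ, although their 3 highest libraries were not the same. The transcripts of ARR3 and ARR4 shared 1.09% and 0.705% of their 32-base words with each other, and those of ARR5 shared none with another gene. The pairs that include a scarce gene, ARR7 with ARR15 at 0.28 and ARR16 with ARR17 at 0.22, rest on libraries mostly at or near 0.

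**Figure D4:**
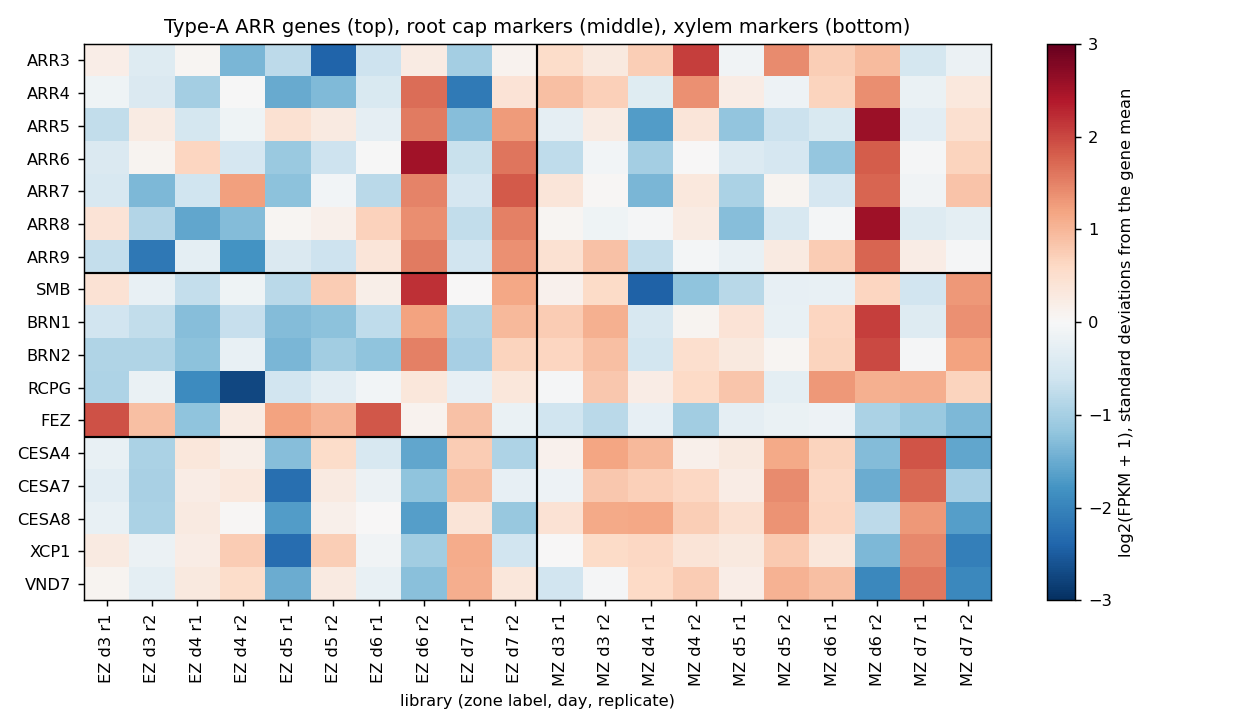
Levels of the 7 detected members, of 5 root cap genes and of 5 xylem genes in each of the 20 libraries, as log2(FPKM + 1) in standard deviations from the mean of each gene (red high, blue low), with EZ libraries left of the vertical line and MZ libraries right of it. The columns of EZ day 6 replicate 2, EZ day 7 replicate 2 and MZ day 6 replicate 2 are red for ARR5 to ARR9, BRN1 and BRN2 and mostly blue for the xylem genes.

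The root cap genes as a sum were high and xylem genes low in the same 3 libraries, though not in these alone. FEZ was not high there, at 2.34 FPKM in EZ day 6 replicate 2, 1.72 in EZ day 7 replicate 2 and 0.676 in MZ day 6 replicate 2. Its range was 0.408 to 9.87 FPKM in EZ libraries and 0.283 to 1.82 FPKM in MZ libraries. The summed level of the 5 root cap genes was 1036 FPKM in EZ day 6 replicate 2, 839 in EZ day 7 replicate 2 and 1667 in MZ day 6 replicate 2, ranks 5, 8 and 1 of 20. That of the 5 xylem genes was 17.0, 42.1 and 14.1 FPKM, ranks 17, 16 and 18, in a range of 4.65 to 293 FPKM in EZ libraries and 7.90 to 542 FPKM in MZ libraries. MZ day 7 replicate 2 resembled them, with 1119 FPKM of root cap genes (rank 3) and 7.90 FPKM of xylem genes (rank 19), but was not among the 3 highest for ARR5 to ARR9, and the lowest xylem level was that of EZ day 5 replicate 1. The 4 endodermis genes had no common level in the 3 libraries, at 10.8, 943 and 325 FPKM, ranks 20, 3 and 16. Their part in the pattern of the family was not tested.

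Over all 20 libraries each of the 7 detected members correlated positively with the mean of the root cap genes, at 0.28 to 0.73 with a median of 0.55. Without the 2 libraries farthest from the member's median this was 0.15 for ARR6, 0.30 for ARR5 and ARR7 and 0.39 for ARR3. It was then 0.60 for ARR8, 0.64 for ARR4 and 0.76 for ARR9. Within MZ libraries the value of ARR3 was -0.23. Correlations of the 7 members with the endodermis genes were -0.67 to -0.11 and with the phloem genes -0.75 to -0.16. Those with the xylem genes ran from -0.66 to 0.07. With the root hair genes they ran from -0.18 to 0.60, the highest being that of ARR3, at 0.36 within EZ and 0.46 within MZ, whereas ARR3 correlated with the root cap genes at 0.28. With the genes of dividing cells the values over both labels were -0.59 to -0.02. Within EZ libraries these ran from -0.85 for ARR7 to -0.20 for ARR8, and within MZ libraries from -0.19 for ARR3 to 0.51 for ARR9, with ARR7 at 0.43.

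The root cap genes were not alike in their relation to the family, and the highest value was that of ARR4 with BRN2. BRN2 was the gene most like ARR4 of 12826 genes that averaged 5 FPKM or more, with a Pearson correlation of 0.87 and a Spearman correlation of 0.91. The Pearson value was 0.85 within EZ libraries and 0.75 within MZ libraries, and 0.87 without the 2 libraries farthest from the ARR4 median. BRN1, a close relative of BRN2, correlated with ARR4 at 0.83, RCPG at 0.45, SMB at 0.31 and FEZ at -0.49. ARR7 correlated with BRN2 at 0.73, with 0.87 within EZ and 0.85 within MZ, and with SMB at 0.67, but with RCPG at 0.07 and FEZ at -0.39. ARR9 correlated with BRN1 at 0.73 and with FEZ at -0.37. ARR3 correlated with BRN2 at 0.51 over all libraries, 0.39 within EZ and 0.01 within MZ. With BRN1 the corresponding values were 0.50, 0.54 and -0.10.

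**Figure D5:**
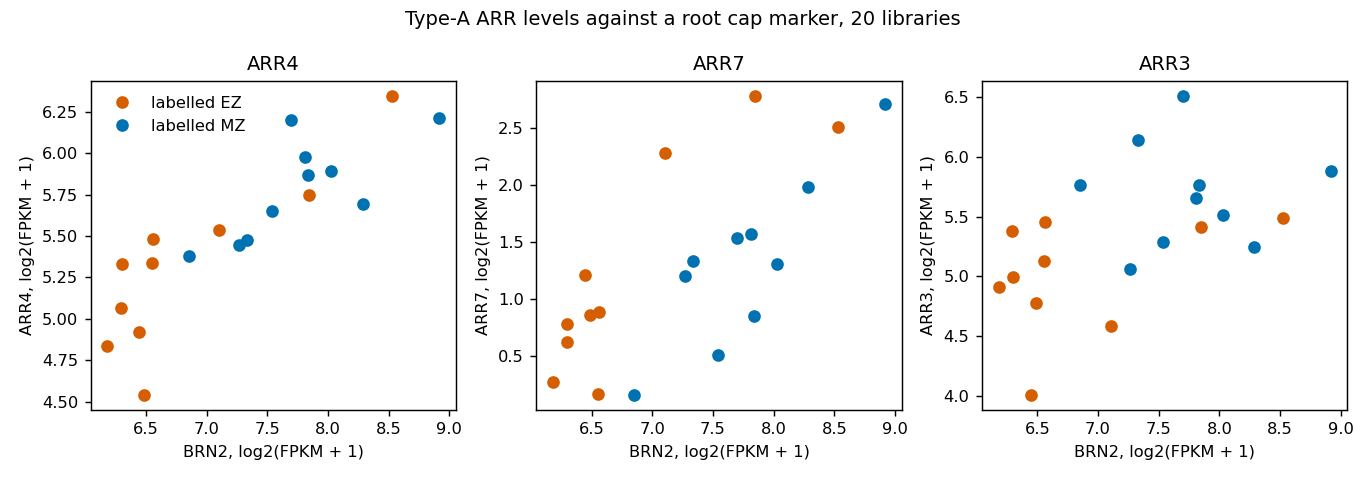
Level of ARR4, ARR7 and ARR3 against that of the root cap gene BRN2 in the 20 libraries, both as log2(FPKM + 1), with EZ libraries in orange and MZ libraries in blue. ARR4 and ARR7 are higher where BRN2 is higher within both labels (0.85 and 0.75 for ARR4, 0.87 and 0.85 for ARR7), and ARR3 is not within MZ (0.01).

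The genes most like the mean profile of the 10 members, by Pearson correlation over 20 libraries, were AT5G62420, an NAD(P)-linked oxidoreductase, at 0.91, AT1G76240 at 0.89, the auxin response repressor IAA1 at 0.89, AT3G15810 at 0.89 and the ethylene receptor ERS1 at 0.88. IAA1 was also the gene most like ARR5, at 0.85, and AT1G76240 most like ARR9, at 0.87. ARR3 was most like the cytosolic glutamine synthetase AT5G37600, at 0.87, ARR6 like the oligopeptide transporter OPT4, at 0.89, ARR7 like AT5G51670, at 0.87, and ARR8 like the transcription factor WRKY17, at 0.83. ARR15, ARR16 and ARR17 were most like AT5G48370, AT2G40640 and AT3G05525, at 0.74, 0.70 and 0.78, on few libraries above 0. Each is the highest of the 12826 genes searched.

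Upstream of the family, AHK4, a receptor known for its role in the root vasculature, and the phosphotransfer protein AHP2 were lower in EZ libraries. AHK4 read 21.3 ± 6.28 FPKM in EZ and 35.7 ± 11.4 FPKM in MZ (SD, n = 10 each), a difference of -0.72 ± 0.21 (limma, adjusted p = 0.0179). AHP2 read 42.8 ± 7.78 FPKM in EZ and 65.4 ± 13.9 FPKM in MZ, a difference of -0.59 ± 0.12 (adjusted p = 0.00245). The other 2 receptors and the other 5 phosphotransfer proteins were not called.

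The type-B activators that act on the family in the root, ARR1, ARR10 and ARR12, were abundant and not called, at -0.23, -0.12 and -0.18. ARR1 read 36.7 ± 3.72 FPKM in EZ and 44.0 ± 9.27 FPKM in MZ, ARR10 54.2 ± 21.0 FPKM in EZ and 56.6 ± 14.6 FPKM in MZ, and ARR12 42.2 ± 13.0 FPKM in EZ and 46.8 ± 6.69 FPKM in MZ (SD, n = 10 each). These levels, per length, are near those of ARR3 and ARR4. Of 9 type-B genes tested, 2 were higher in EZ, ARR19 and ARR20, at means of 0.826 and 1.35 FPKM in EZ and 0.181 and 0.257 FPKM in MZ. Both are near the limit of detection. ARR19 was listed at 0 in 5 MZ libraries and ARR20 in 1 EZ and 5 MZ libraries. The highest EZ value of ARR20 was 5.32 FPKM, against an EZ median of 0.989 FPKM. The type-C regulator ARR22, the 1 of 2 type-C genes tested, was also higher in EZ, at 0.929 ± 0.857 FPKM against 0.211 ± 0.312 FPKM in MZ (SD, n = 10 each), a difference of 0.59 ± 0.20 (limma, adjusted p = 0.0428). ARR22 was listed at 0 in 2 EZ and 6 MZ libraries.

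In cytokinin synthesis, IPT9, which modifies transfer RNA, was higher in EZ libraries at 9.44 ± 4.74 FPKM, against 3.51 ± 1.31 FPKM in MZ, and LOG7, which releases active cytokinin from its nucleotide, was lower at 96.0 ± 49.3 FPKM, against 143 ± 35.0 FPKM in MZ (SD, n = 10 each). Their differences were 1.14 ± 0.22 and -0.68 ± 0.17 (limma, adjusted p = 0.00178 and 0.00892), and the other 11 of 13 tested were not called. Of 6 cytokinin response factors, CRF2 and CRF3 were higher in EZ, at 1.37 ± 0.27 and 1.04 ± 0.29 (adjusted p = 0.00206 and 0.0143). None of 5 cytokinin oxidases and none of 4 KMD proteins, which target type-B regulators for degradation, was called.

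Over the whole list of 58 other cytokinin genes, 47 were tested and 9 were called between labels, 6 higher and 3 lower in EZ libraries, with 12 at an unadjusted p of 0.05. Of all genes 28.4% were called, 20.6% as higher and 7.77% as lower, and 39.9% passed the unadjusted p. Their median difference was 0.13, close to that of all genes. The 3 lower genes, AHK4, AHP2 and LOG7, had the direction of ARR3, and the 6 higher genes the opposite. A count of 3 of 47 is no more than the share of all genes called lower, so no common pattern is read from it. By limma none of the 47 was called for a trend with age or for a change of the zone difference, whose shares over all genes are given above. At an unadjusted p of 0.05, 11 of the 47 passed for the trend over both labels, against 16.5% of all genes, 7 for the EZ trend, against 8.33%, and 1 for the MZ trend, against 13.0%. The trend of the difference gave 4, against 6.11%, any age difference 6 in EZ, against 7.99%, and 1 in MZ, against 9.47%, and any change of the zone difference 1, against 4.62%.

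Reads of ARR6 and ARR8 could hold a share from an overlapping gene, since 22.2% of the 32-base words of each transcript, read on either strand, also occur in a neighbouring model and the counting is not stated to use strand. The gene concerned for ARR6, AT5G62910, read 3.86 to 13.9 FPKM in EZ libraries and 2.69 to 13.3 FPKM in MZ libraries.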

How the data were processed

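The authors deposited 1 table of FPKM values for 33201 genes in 20 libraries. TopHat2 2.0.13, Cufflinks 2.1.1 and TAIR10 are named per the submitters' processing notes, with roles and settings not given in the sources used here. FPKM holds no counts. Depth was recovered from low values of 5389 transcripts of at least 2000 bp with 1 isoform, less an assumed fragment of 200 bp, as the step of 1 fragment, with 75.3% to 90.1% of these values within 0.1 of a whole number. In 3 simulated libraries of these transcripts the largest error was 0.0387%. The simulation used the same lengths and assumed fragment, so it checks the search for the step and not the accuracy of the depths. FPKM already divides by depth, so a shallow library is noisier but not lower.

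Values were taken as log2(FPKM + 1). The model, run in limma 3.58.1 (R 4.3.3), held the 10 group means, let the variance follow expression and shared 1 spread among all 20 libraries. It covered the 22335 genes that reached 1 FPKM in 2 or more libraries, and was tested on simulated data. Adjusted p values are two-sided Benjamini-Hochberg values over those genes, with a threshold of 0.05. An SE rests on all 20 libraries. The labels call the replicates biological and name no culture or batch. Replicate numbers were not used to pair samples in the main model.

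Symbols, transcript lengths and shared 32-base words came from TAIR10.1, so no positions are given. Members, lists and tests were chosen with earlier results of these data known. All members are named. Other cytokinin genes are named if called, ARR1, ARR10 and ARR12 in addition (chosen after their values were seen), and for likeness the 5 genes nearest the family's mean profile and the 1 nearest each member. Alternatives tried were other pseudocounts (0.1 and 5), other filters (none, or 5 FPKM), quantile or median-of-ratios scaling, library weights (statmod 1.5.0), the replicate block, each library left out in turn, and, added after seeing the data, EZ day 6 replicate 2 and EZ day 7 replicate 2 left out together.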

Additional observations from a re-analysis of the deposited data

Results flagged for a closer look

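Within a zone label of 10 libraries, 10 of 20 combinations of member and label had an end value far from its neighbour by Dixon's test. Chance gives this in about 1 of 20 only for normally distributed values of 1 group. These FPKM values span 5 ages and are often 0 for the 3 scarcest genes, so that rate is no yardstick here. In EZ day 6 replicate 2 these were ARR4 at 80.3 FPKM, ARR6 at 48.6 FPKM and ARR17 at 3.24 FPKM. In MZ day 6 replicate 2 they were ARR5 at 25.7 FPKM, ARR6 at 32.1 FPKM, ARR7 at 5.54 FPKM, ARR8 at 65.7 FPKM and ARR9 at 28.0 FPKM, each the highest of the MZ libraries. ARR15 at 1.92 FPKM in EZ day 4 replicate 2 and ARR16 at 1.48 FPKM in MZ day 5 replicate 2 were low levels among libraries mostly listed at 0. The 5 values of MZ day 6 replicate 2 come from 1 library and are not independent of each other.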

How the results depend on the processing

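ARR3 remained lower in EZ libraries and past the threshold in every alternative run, with adjusted p from 0.00533 to 0.0288. The number of members called between labels, 1 as reported, was 2 under median-of-ratios scaling, library weights and the replicate block, 3 without both EZ libraries that stand apart, where ARR4 and ARR9 are high, so that their EZ means fall by construction, and 1 to 2 with each library left out in turn. The added member was ARR4 (adjusted p 0.0340, 0.0496 and 0.0312, and 0.00319 without both), whose p ran from 0.00319 to 0.130, and then ARR9. No alternative called a member for age or for a change of the zone difference. The median difference of all genes was 0.15 as deposited, -0.06 under quantile normalisation and 0.06 under median-of-ratios scaling, and ARR3 relative to it was -0.82, -0.65 and -0.86.

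Differences that turned were those of ARR5 (-0.20 quantile, -0.18 without both) and ARR6 (-0.0217 and -0.15). EZ trends turned for ARR4 (-0.000846 at a pseudocount of 0.1, -0.17 without both), ARR5 (-0.14), ARR6 (-0.0886) and ARR7 (-0.0244), and the MZ trend for ARR4 (0.00182 quantile, 0.00818 median-of-ratios). With 1 library left out, differences ran from -0.0850 to 0.33 for ARR5, -0.27 to 0.11 for ARR7, -0.12 to 0.0915 for ARR8 and -0.18 to 0.0808 for ARR15. Without a turn, ARR6 ran from 0.000433 to 0.51 and ARR17 from 0.000395 to 0.42. EZ trends then ran from -0.0767 to 0.0497 for ARR3, -0.12 to 0.12 for ARR4, -0.0761 to 0.28 for ARR5, 0.0184 to 0.40 for ARR6, 0.0696 to 0.45 for ARR7, 0.0612 to 0.25 for ARR8 and 0.23 to 0.47 for ARR9, and MZ trends from -0.0326 to 0.0751 for ARR8 and -0.00140 to 0.0593 for ARR9. The cause was not tested. All 200 mean levels per label moved by less than 1 SD with 1 library left out. Leaving out 1 library cannot move the mean of a label by 1 SD, so this holds by construction and does not measure stability. ARR15 to ARR17 could not be tested where a filter dropped them.

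Of 45 pairs of groups, 12 had same-numbered replicates deviating together with a correlation over 0.1, and 2 had one under -0.1 (median 0.02, highest 0.35). These values do not settle whether the numbers pair samples in part. Among the 10 members the block changed no call other than that of ARR4. Over all genes it moved the zone calls to 6636, against 6334. A group of 2 libraries, and levels under 3 fragments, set the precision.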
